A study of Mus musculus with 2 samples.

Results

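Genes of the major histocompatibility complex (MHC) and of antigen presentation were described in dissociated pancreatic islets of C57BL/6J mice. A gene was a member when it had a row in the count tables of both libraries and its symbol started with H2-, the prefix of the mouse MHC, or was B2m, Tap1, Tap2, Tapbp, Psmb8, Psmb9, Psmb10, Nlrc5, Cd74, Ciita, Erap1 or Ctss. This gave 43 members of 27729 genes listed in both libraries (33038 in either), of which 31 carried the prefix H2- and 36 lay on chromosome 17. The animals were 8 weeks old and untreated, and the single group, control islets, had 2 libraries that were technical replicates of 1 islet preparation, each loaded with 10000 cells. Genotype and treatment were therefore the same throughout, and no difference between animals could be measured. Library 1 held 735 cells with 15931154 transcripts counted by unique molecular identifier (UMI), and library 2 held 748 cells with 17440292 UMIs. The median cell had 17340 and 18922 UMIs, and the libraries shared 0 cell barcodes.

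Every nucleated cell can show peptides from its own proteins on MHC class I molecules, which pair a heavy chain with the light chain beta-2 microglobulin (B2m) and are read by CD8 T cells. MHC class II molecules show peptides from ingested material to CD4 T cells and are made chiefly by B cells, dendritic cells and macrophages. In islets, class I on beta cells has long been studied because CD8 T cells take part in autoimmune diabetes. Interferons raise the transcription of both classes, through Nlrc5 for class I and through Ciita for class II.

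Cells were grouped by the hormone transcripts that reached 1% of their UMIs. The groups were insulin only (182 cells in library 1 and 190 in library 2), glucagon only (182 and 174), somatostatin only (35 and 23), pancreatic polypeptide only (54 and 68), 2 or more hormones (191 and 201) and hormone-free (91 and 92). No cell had its leading hormone between 1% and 2% of UMIs. The median cell of every hormone-containing group had UMIs of all 6 endocrine markers searched. Hormone-free cells were divided by marker genes into endothelial-marker cells (28 and 34), leukocyte-marker cells (42 and 40) and others (21 and 18). The leukocyte-marker cells were divided further into B cell (20 and 11), T cell (8 and 12), macrophage (8 and 13) and dendritic (4 and 3) marker cells, with 2 and 1 unresolved, and 10 of the others in each library carried ductal markers. Levels below are CPM, UMIs scaled to a total of 1000000 per group, after the 5 hormone genes had been taken out of the totals, in library 1 and then in library 2. Tests are edgeR quasi-likelihood tests on UMI sums per library and group, adjusted over all genes tested. Their p-values measure only the spread between technical replicates of 1 preparation.

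The classical class I heavy chains H2-K1 (chr17:33996017-34000347, minus strand, GRCm38) and H2-D1 (chr17:35262730-35267499, plus strand) carried most class I UMIs. B2m lies at chr2:122147686-122153083 on the plus strand, and H2-Q2, a non-classical heavy chain gene, at chr17:35342242-35346762 on the plus strand. The 250 bases before the RefSeq start of these 4 genes (build GRCm38.p6) are shown because H2-K1, H2-D1 and B2m were higher, and H2-Q2 lower, in all hormone-free cells combined than in single-hormone cells. Capitals mark matches on either strand, written as they read on the gene's strand. They mark the kB site (the leftmost capitals of H2-K1 and H2-D1), the interferon-stimulated response element core GAANNGAAA (the next capitals, on the reverse strand), the cAMP response element core TGACG and the CCAAT box (reverse ATTGG). The H2-D1 window lies inside the longer GENCODE model of that gene.
H2-K1, chr17:34000348-34000597, minus strand: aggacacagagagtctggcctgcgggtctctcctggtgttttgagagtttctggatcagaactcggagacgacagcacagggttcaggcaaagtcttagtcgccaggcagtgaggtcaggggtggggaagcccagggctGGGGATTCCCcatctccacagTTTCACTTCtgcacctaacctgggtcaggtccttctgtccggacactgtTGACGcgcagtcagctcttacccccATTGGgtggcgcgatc
H2-D1, chr17:35262844-35263093, plus strand: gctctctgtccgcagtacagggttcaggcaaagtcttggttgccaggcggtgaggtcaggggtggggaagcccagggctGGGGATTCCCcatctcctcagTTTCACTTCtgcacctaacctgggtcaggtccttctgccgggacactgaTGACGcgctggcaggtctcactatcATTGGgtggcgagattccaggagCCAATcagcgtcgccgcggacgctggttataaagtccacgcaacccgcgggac
B2m, chr2:122147437-122147686, plus strand: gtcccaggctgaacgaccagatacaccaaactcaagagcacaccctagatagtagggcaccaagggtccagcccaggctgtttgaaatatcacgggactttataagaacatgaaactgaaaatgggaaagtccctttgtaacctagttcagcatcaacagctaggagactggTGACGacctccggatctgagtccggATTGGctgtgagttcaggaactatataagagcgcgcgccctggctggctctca
H2-Q2, chr17:35342057-35342306, plus strand: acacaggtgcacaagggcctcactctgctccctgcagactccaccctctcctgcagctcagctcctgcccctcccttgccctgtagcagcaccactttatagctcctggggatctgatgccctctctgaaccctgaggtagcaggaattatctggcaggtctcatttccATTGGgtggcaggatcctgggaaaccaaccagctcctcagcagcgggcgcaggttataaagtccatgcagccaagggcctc

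H2-K1 and H2-D1 held all 4 motifs in the same order. The kB site began 111 bases before the start of H2-K1 and 171 before that of H2-D1, and the interferon-stimulated core 90 and 150 bases before. Of the 4 patterns searched, B2m held the TGACG core and the CCAAT box, and H2-Q2 held the CCAAT box alone. GAANNGAAA was searched in this spacing only, so a window without it may hold another form of the element. The letters gaaactgaaa of the B2m window have a longer spacing, which was not searched. Of 32851 RefSeq windows of this length, 0.0852% held the kB site, 6.31% the interferon-stimulated core, 17.8% TGACG and 33.8% CCAAT. The RefSeq table had a window for 32 of the 43 members. CCAAT was found in 24 of them, TGACG in 11, the interferon-stimulated core in 9 and the kB site in 4, which were H2-K1, H2-D1, H2-Q6 and H2-Q7. These are matches of letters, and binding was not measured.

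Class I transcripts were found in nearly every cell. A UMI of H2-K1 or H2-D1 was present in all but 1 insulin-only cell of library 1 and 1 glucagon-only cell of library 2. Summed over 22 class I genes, B2m among them, the level was 1055 and 993 CPM in insulin-only cells, 1111 and 1136 in glucagon-only cells, and 1214 and 1191 in pancreatic polypeptide-only cells. It was 1598 and 1224 in somatostatin-only cells and 1267 and 1174 in cells with 2 or more hormones. Insulin-only cells were lowest and glucagon-only cells next in both libraries, while cells with 2 or more hormones overlapped both pancreatic polypeptide-only and somatostatin-only cells. Hormone-free cells stood apart at 5459.8 and 6779 CPM. That was 3.42 to 5.18 times the levels of the 4 single-hormone groups in library 1, and 5.54 to 6.82 times in library 2. B2m gave 1618 and 2076 CPM of the hormone-free sum, against 69.0 and 39.2 of the insulin-only sum. Endothelial-marker cells (7182 and 8443) and leukocyte-marker cells (6911 and 8677) overlapped each other, and ductal-marker cells had 2264 and 1698.

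**Figure D1:**
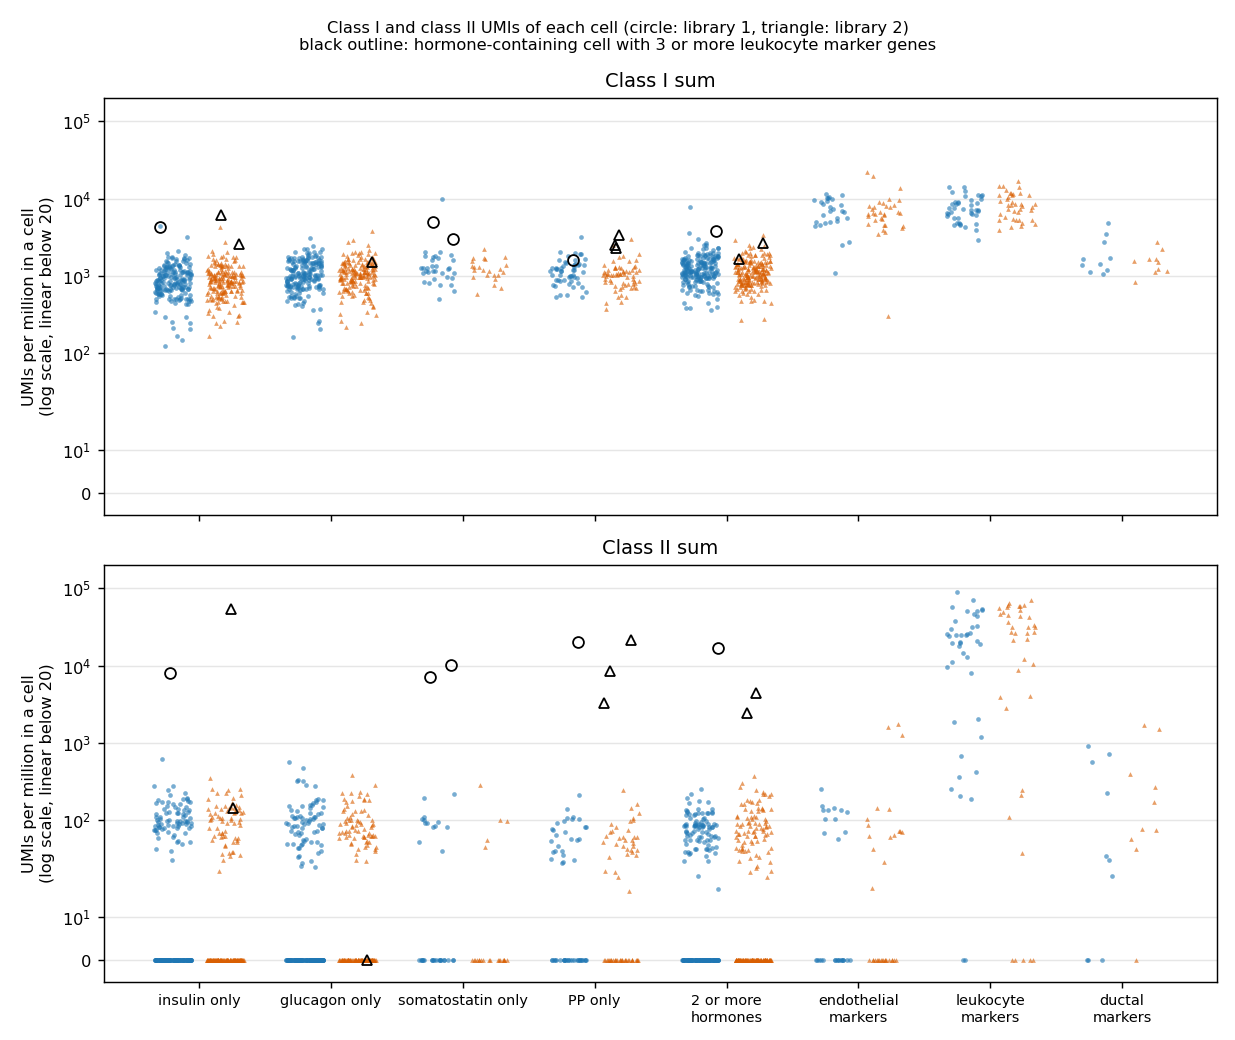
CPM of the class I sum (top) and the class II sum (bottom) in each cell, by cell group and library, on an axis that is linear below 20 and logarithmic above. Circles are cells of library 1, triangles are cells of library 2, and black outlines mark hormone-containing cells with 3 or more leukocyte marker genes. The 28 and 34 endothelial-marker cells sit with the leukocyte-marker cells in class I and mostly near 0 in class II. Hormone-free cells with mesenchymal or endocrine markers are not drawn.

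H2-K1 stood at 529 and 533 CPM in insulin-only cells, 484 and 502 in glucagon-only cells, 709.8 and 516 in somatostatin-only cells and 552 and 531 in pancreatic polypeptide-only cells. In hormone-free cells it stood at 1672 and 2173. All hormone-free values lay above all single-hormone values, with a log2 fold change of 1.90 against the mean of the 4 single-hormone groups (SE 0.11, adjusted p = 7.59e-09 by edgeR). H2-D1 was at 227 and 201 in insulin-only, 290.2 and 283 in glucagon-only, 472 and 292 in somatostatin-only and 358 and 346 in pancreatic polypeptide-only cells, against 1232 and 1366 in hormone-free cells. Its log2 fold change was 2.18 (SE 0.11, adjusted p = 4.4e-09 by edgeR). Ductal-marker cells were an exception among hormone-free cells, with H2-K1 at 892 and 547 and H2-D1 at 320.4 and 291, so that H2-D1 in both libraries and H2-K1 in library 2 lay within the range of the single-hormone groups.

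B2m, the light chain that every class I molecule needs, differed far more between the same groups. It was at 69.0 and 39.2 CPM in insulin-only cells, 44.9 and 58.1 in glucagon-only cells, 160.4 and 46.9 in somatostatin-only cells and 35.2 and 57.5 in pancreatic polypeptide-only cells. Hormone-free cells had 1618 and 2076, a log2 fold change of 4.98 (SE 0.21, adjusted p = 9.63e-10 by edgeR). All single-hormone values lay far below both hormone-free values, and somatostatin-only cells of library 1 were nearest. That value rested on 3 cells that carried 3 or more leukocyte or endothelial markers (marker-carrying cells), since the other 32 somatostatin-only cells of library 1 held 19 of the 73 B2m UMIs, a level of 44.8. For each 100 UMIs of H2-K1, insulin-only cells had 13.0 and 7.35 UMIs of B2m, glucagon-only cells 9.28 and 11.6, somatostatin-only cells 22.6 and 9.09 and pancreatic polypeptide-only cells 6.39 and 10.8. The same ratio was 141 and 107 in endothelial-marker cells, 125 and 130.3 in macrophage-marker cells, 63.6 and 73.9 in B cell-marker cells and 56.6 and 90.4 in ductal-marker cells. These are UMI ratios of a pair of genes without a correction for length, so they are compared between cell groups and do not give the balance of the chains. Without the marker-carrying cells the somatostatin-only ratio of library 1 was 7.04 in place of 22.6, and those of insulin-only cells 5.61 and 3.73. Every endocrine hormone group lay below every one of these groups in both libraries, and the difference between the fold changes of the genes was not tested.

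**Figure D2:**
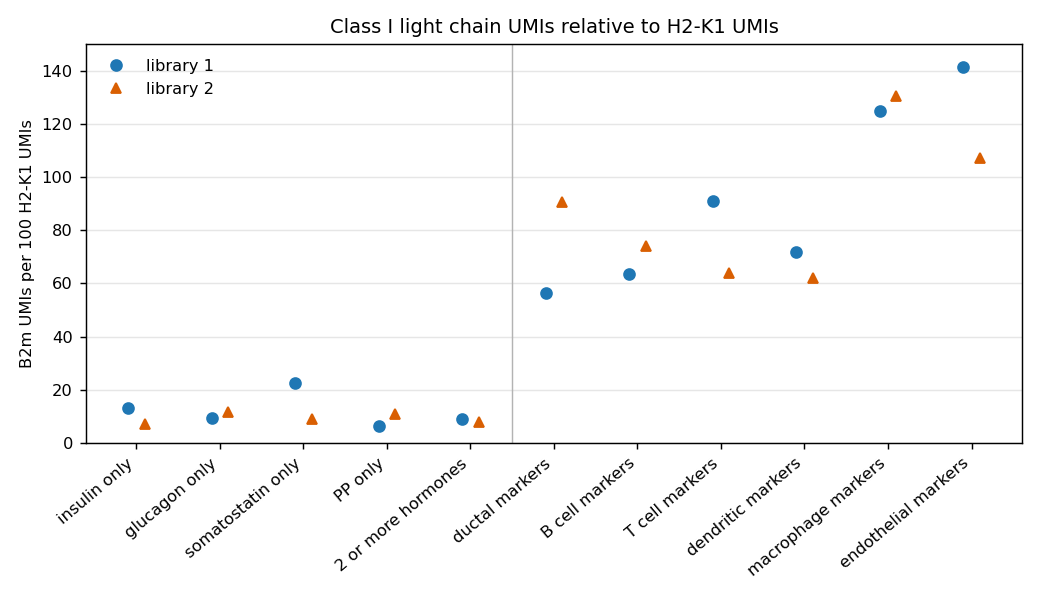
B2m UMIs for each 100 H2-K1 UMIs (vertical axis, linear from 0) by cell group, with circles for library 1 and triangles for library 2. The 5 hormone-containing groups lie between 6.39 and 22.6, the latter falling to 7.04 without 3 cells, and the hormone-free groups drawn lie between 56.6 and 141. Hormone-free cells with endocrine markers (5 and 6 cells, at 4.55 and 78.0) or mesenchymal markers (6 and 2 cells, at 125 and 38.5) are not drawn and partly lie below that range.

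Over all members, 37 passed the filter on low counts in the comparison of hormone-free cells with the mean of the 4 single-hormone groups. Of these, 34 were higher in hormone-free cells and 1, H2-Q2, was lower, while 33.3% of all genes tested were higher and 25.9% lower (59.2% called in either direction). The members' median log2 fold change was 3.62, and that of all genes tested was 0.05. A member that passed the filter only through the hormone-free cells had to differ, so these counts are a description. H2-K2, a class I locus at 0.13 on the log2 scale (SE 0.17), and H2-Ke6, which carries the prefix but encodes a steroid dehydrogenase, were not called. H2-Bl, H2-M10.2, H2-M5, H2-Q1, H2-Q10 and H2-T-ps were too low to be tested.

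Of the 12 non-classical class I genes tested, 11 were higher in hormone-free cells, where 33.3% of all genes were. A gene that passed the filter only through those cells had to differ. Not all of the 11 followed H2-K1, since H2-M2 had UMIs in 3 and 10 hormone-free cells and H2-T3 in 6 and 9. H2-T23, which encodes the Qa-1 molecule that NK cell receptors read, had 15.1 and 13.9 CPM in insulin-only cells and 101 and 109 in hormone-free cells (log2 fold change 2.30, SE 0.13, adjusted p = 9.73e-09 by edgeR). H2-Q7, a Qa-2 gene, had 7.75 and 4.63 in insulin-only cells and 184 and 361 in hormone-free cells, with 1051 and 928 in T cell-marker cells. H2-Q6 (395 and 411 in leukocyte-marker cells), H2-Q4 (127 and 163) and H2-T22 (89.4 and 114) were higher there than in every single-hormone group. Of the 22 class I genes, 8 shared over 10% of their 70-base transcript stretches with another gene, among them H2-Q5 (22.8%), H2-T22 (21.1%), H2-Q6 (20.3%), H2-T10 (18.6%) and H2-Q7 (18.5%), so reads may have been split or lost between them. The share was 3.82% for H2-K1, 5.87% for H2-D1, 9.14% for H2-Q2 and 0% for B2m.

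H2-Q2 was lower in endothelial-marker and leukocyte-marker cells than in single-hormone cells. It stood at 76.8 and 85.1 CPM in insulin-only cells, 112 and 108 in glucagon-only cells, 54.9 and 107 in somatostatin-only cells and 107 and 91.5 in pancreatic polypeptide-only cells. It had 0 UMIs in the endothelial-marker cells of both libraries and 5.06 and 0 CPM in leukocyte-marker cells. In ductal-marker cells it stood at 168 and 52.3. These cells held 63 of the 76 H2-Q2 UMIs of hormone-free cells in library 1, but 18 of 38 in library 2. The ductal-marker level of library 1 lay above every single-hormone value, and 1 cell held 37 of its 63 UMIs. Against a floor of 3 UMIs over both endothelial libraries, the 4 single-hormone groups were at least 36.1-fold to 52.4-fold higher. Against all hormone-free cells the log2 fold change of H2-Q2 was -1.45 (SE 0.28, adjusted p = 0.000495 by edgeR).

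H2-M2 and H2-T3 were each found mainly in 1 kind of cell. H2-M2 had 492 and 493 CPM in macrophage-marker cells and 0 UMIs in insulin-only, glucagon-only and somatostatin-only cells, so the macrophage-marker level was at least 836-fold higher than that of insulin-only cells. These values rest on few cells, since 1 macrophage-marker cell held 36 of 47 H2-M2 UMIs in library 1 and 1 held 65 of 174 in library 2. Endothelial-marker cells of library 2 held 22 of the latter. H2-T3, the thymus leukaemia antigen gene, had 131 and 180.2 in ductal-marker cells and 0 UMIs in leukocyte-marker cells (at least 63.4-fold higher in ductal-marker cells). Those ductal-marker values rest on 10 cells in each library, of which 5 and 7 had H2-T3 UMIs. H2-Q1 (32.0 and 23.3) and H2-Bl (29.4 and 8.72) were also listed in ductal-marker cells and had at most 1 UMI in any hormone-containing group, but each was found in 2 of the 10 ductal-marker cells of each library, and 1 cell held 10 of 12 and 7 of 8 H2-Q1 UMIs.

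All 7 genes that make and load class I peptides were higher in hormone-free cells, where 33.3% of all genes were. Psmb8, Psmb9 and Psmb10 encode the catalytic subunits of the immunoproteasome, Tap1 and Tap2 the peptide transporter, Tapbp the loading factor tapasin and Erap1 a trimming peptidase. Psmb8 had 67.9 and 37.5 CPM in insulin-only cells and 516 and 398 in hormone-free cells (log2 fold change 3.16, SE 0.17, adjusted p = 4.4e-09 by edgeR). Psmb9 differed by 3.62 and Tap1 by 3.20 on the log2 scale, Psmb10 by 2.50 and Tap2 by 1.95. The smallest differences were those of Tapbp, at 186 and 188 in insulin-only cells and 372 and 386 in hormone-free cells (log2 fold change 1.24, SE 0.09), and of Erap1 (0.87, SE 0.14). Nlrc5, the class I transactivator, had 4.06 and 1.26 in insulin-only cells, 67.3 and 55.1 in hormone-free cells, and its highest level in T cell-marker cells, at 244 and 194.

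**Figure D3:**
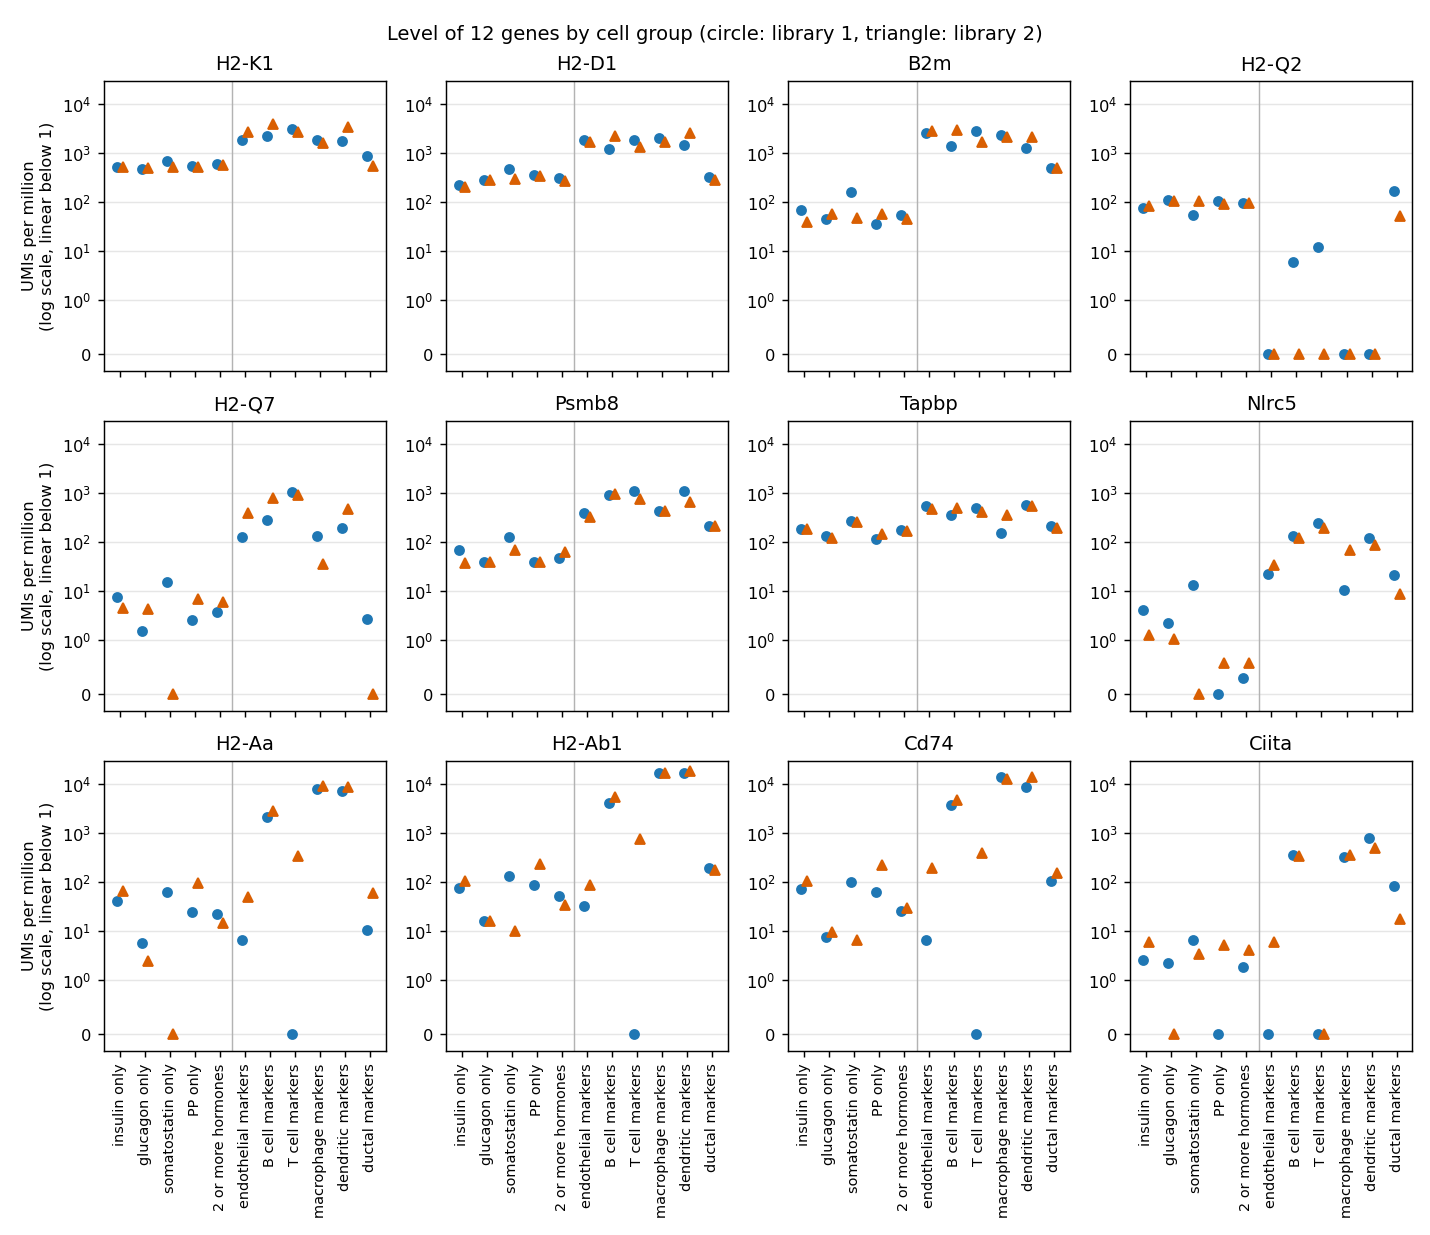
Level of 12 members in CPM by cell group, on an axis that is linear below 1 and logarithmic above, with circles for library 1 and triangles for library 2 and a line between hormone-containing and hormone-free groups. H2-K1, H2-D1 and B2m are higher in endothelial-marker and the 4 kinds of leukocyte-marker cells than left of the line, H2-D1 of ductal-marker cells (320.4 and 291) is within the range left of it, H2-Q2 is at 0 in endothelial-marker cells, and the class II genes are highest in macrophage-marker and dendritic-marker cells.

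Among the 4 single-hormone groups, insulin-only and glucagon-only cells differed in 10 of 37 members tested, 8 higher and 2 lower in insulin-only cells, against 12.9% of all genes higher and 11.7% lower (24.7% in all). Insulin-only and somatostatin-only cells differed in 3 members (13.8% of all genes), insulin-only and pancreatic polypeptide-only cells in 3 (19.8%), and glucagon-only and somatostatin-only cells in 3 (11.6%). Glucagon-only and pancreatic polypeptide-only cells differed in 8 (9.1%), and somatostatin-only and pancreatic polypeptide-only cells in 4 (8.64%). The comparisons share groups. Of these 31 calls, 14 were also made, in the same direction, when hormone-containing cells with 3 or more leukocyte or endothelial markers were left out (28 of 644 cells in library 1 and 26 of 656 in library 2).

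The 14 calls involved Tapbp, H2-D1, H2-T23, H2-Q4, Psmb8 and H2-DMa. Tapbp was at 186 and 188 CPM in insulin-only cells and 266 and 258 in somatostatin-only cells, and at 131 and 120.4 in glucagon-only and 118 and 145 in pancreatic polypeptide-only cells. The former pair of groups lay above the latter in both libraries. The log2 fold change of insulin-only over glucagon-only cells was 0.62 (SE 0.12, adjusted p = 0.00184 by edgeR), and that of glucagon-only over somatostatin-only cells -0.95 (SE 0.13, adjusted p = 0.000377 by edgeR). Psmb8 was higher in somatostatin-only cells (127 and 70.4) than in glucagon-only cells (38.9 and 39.3), with a log2 fold change of -1.29 for glucagon-only over somatostatin-only cells (SE 0.32, adjusted p = 0.0185 by edgeR).

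Insulin-only cells had less of the class I heavy chains H2-D1, H2-T23 and H2-Q4 in some comparisons, but not of H2-K1. The log2 fold change of H2-K1 was 0.16 over glucagon-only, -0.06 over somatostatin-only and 0.02 over pancreatic polypeptide-only cells, none called. H2-D1 against glucagon-only cells was not called with all cells (-0.38, SE 0.16), but was without the marker-carrying cells (-0.46, SE 0.13). H2-D1 was lower than in somatostatin-only cells (log2 fold change -0.70, SE 0.18, adjusted p = 0.018 by edgeR) and in pancreatic polypeptide-only cells (-0.67, SE 0.17, adjusted p = 0.0121 by edgeR). H2-T23 was lower than in glucagon-only cells, at 15.1 and 13.9 against 27.8 and 26.2 CPM (log2 fold change -0.84, SE 0.20, adjusted p = 0.00731 by edgeR), and H2-Q4 was lower too, at 18.8 and 26.1 against 43.0 and 46.7 (log2 fold change -0.96, SE 0.24, adjusted p = 0.0105 by edgeR). Outside the marker-carrying cells, B2m was at 27.5 and 19.6 in insulin-only cells and 41.7 and 44.7 in glucagon-only cells. Its log2 fold change was then -0.81 (SE 0.19, adjusted p = 0.00491 by edgeR), while with all cells it was 0.12 and not called.

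The class II genes encode the alpha chain H2-Aa and the beta chains H2-Ab1, H2-Eb1 and H2-Eb2, the invariant chain Cd74, and the peptide exchange factors H2-DMa, H2-DMb1 and H2-DMb2 with their modulators H2-Oa and H2-Ob. Cathepsin S (Ctss) degrades the invariant chain, and Ciita is the transactivator of the class. H2-Aa lies at chr17:34282744-34287823 on the minus strand and H2-Eb1 at chr17:34305867-34316674 on the plus strand. Their windows are shown with the same motifs in capitals because they were among the class II genes highest in leukocyte-marker cells. H2-Ab1 and Cd74, which were higher there, had no RefSeq window. The TGACG of H2-Aa was found on both strands in 1 overlapping stretch.
H2-Aa, chr17:34287824-34288073, minus strand: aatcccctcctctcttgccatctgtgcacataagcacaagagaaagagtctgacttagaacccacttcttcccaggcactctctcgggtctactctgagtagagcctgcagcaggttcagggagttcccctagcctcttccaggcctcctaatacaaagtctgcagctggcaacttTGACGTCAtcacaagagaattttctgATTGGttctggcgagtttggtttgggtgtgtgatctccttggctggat
H2-Eb1, chr17:34305617-34305866, plus strand: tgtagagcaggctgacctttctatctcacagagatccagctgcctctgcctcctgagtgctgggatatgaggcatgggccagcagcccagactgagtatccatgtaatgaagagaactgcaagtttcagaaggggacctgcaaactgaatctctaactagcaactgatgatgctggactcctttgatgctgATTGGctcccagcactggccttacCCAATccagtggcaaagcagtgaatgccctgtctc

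Of 8 windows of class II chains and chaperones, 7 held CCAAT, 1 (H2-Aa) held TGACG, and neither the kB site nor the interferon-stimulated core was found. These counts do not cover H2-Ab1 and Cd74. Of 16 class I and B2m windows, 13 held CCAAT, 8 TGACG, 8 the interferon-stimulated core and 4 the kB site.

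Class II transcripts were concentrated in leukocyte-marker cells. The 10 class II chains and chaperones summed to 20329 and 25303 CPM there, with 51656 and 52919 in macrophage-marker cells, 44469 and 55942 in dendritic-marker cells and 14130 and 17986 in B cell-marker cells. T cell-marker cells had 257 and 2050, and 3 cells held 98.6% of the latter. Every B cell, macrophage and dendritic-marker cell had class II UMIs, and the lowest cell had 43. Macrophage-marker and dendritic-marker cells overlapped each other and lay above B cell-marker cells. Endothelial-marker cells had 59.9 and 399.7, and 3 cells of library 2 held 94.6% of the latter.

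H2-Ab1 reached 16957 and 17369 CPM in macrophage-marker cells and 4119 and 5426 in B cell-marker cells. Cd74 stood at 14339 and 13044 and at 3841 and 4832 in the same groups, and H2-Aa at 8149 and 9207 and at 2112 and 2816. H2-Eb1 stood at 11469 and 11967 and at 2462 and 3069.7. H2-Ob, H2-DMb2 and H2-Eb2 were instead higher in B cell-marker than in macrophage-marker cells. H2-Ob, which restrains peptide exchange, was at 449 and 529.6 in B cell-marker cells and 94.3 and 99.7 in macrophage-marker cells, and H2-DMb2 was at 425 and 513 and at 10.5 and 73.5. H2-Eb2 was at 179 and 168 in B cell-marker cells and at 0 and 21.0 in macrophage-marker cells. Ctss was at 6787 and 6514 in macrophage-marker cells. Ciita was at 356 and 346 in B cell-marker cells, 335 and 357 in macrophage-marker cells and 795 and 504 in dendritic-marker cells, and at 0 UMIs in T cell-marker cells (at least 35.1-fold lower than in B cell-marker cells).

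Leukocyte-marker and endothelial-marker cells were compared to set the class I and class II genes side by side. Of 36 members tested, 20 were higher in leukocyte-marker cells, where 17.8% of all genes were higher, and 1 was lower, where 22.4% were (40.2% in all). Members such as H2-Oa and H2-Eb2 had 0 or 1 UMIs in the endothelial-marker cells of each library. They passed the filter through leukocyte-marker cells and had to differ, so these counts are a description. All 4 class II chains, all 6 chaperones, Ctss and Ciita were among the 20, with log2 fold changes of 7.18 for H2-Eb1 (SE 0.71), 6.68 for H2-Ab1 (SE 0.71), 6.66 for H2-Aa (SE 0.80) and 5.62 for Cd74 (SE 0.92, adjusted p = 0.000369 by edgeR). The other 8 were Nlrc5 (2.08), H2-T10 (1.58), H2-K2 (1.33), H2-Q6 (1.23), Psmb8 (1.07), Psmb9 (0.93), Tap1 (0.87) and H2-M2 (3.28). Tapbp was lower, at 378 and 423 against 559 and 474 CPM (log2 fold change -0.48, SE 0.16, adjusted p = 0.0331 by edgeR). H2-K1 differed by 0.01 (SE 0.21), H2-D1 by -0.24 (SE 0.20) and B2m by -0.56 (SE 0.34), none of them called.

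Each of these cell groups was also set against the mean of the 4 single-hormone groups. In leukocyte-marker cells 34 of 36 members tested were higher and H2-Q2 was lower (58% of all genes called, 27.2% higher and 30.8% lower), with H2-Ke6 not called. The median log2 fold change of all genes was -0.18 in that comparison and that of the members 4.51. Members such as H2-M2, H2-Oa and H2-Eb2, with few or no UMIs in single-hormone cells, passed the filter through leukocyte-marker cells and had to differ, so this count and median are a description as well. In endothelial-marker cells 22 were higher and H2-Q2 was lower (47.3% of all genes called, 24.1% higher and 23.2% lower). Among the 22 was H2-M2, with 0 UMIs in the endothelial-marker cells of library 1 and 22, in 3 cells, in library 2. It had few or no UMIs in single-hormone cells, so this count is a description too. B2m differed by 5.12 on the log2 scale in leukocyte-marker cells (SE 0.24) and by 5.68 in endothelial-marker cells (SE 0.24), H2-K1 by 2.27 and 2.26, and Psmb9 by 4.38 and 3.45. With all cells, none of the 4 class II chains was called in endothelial-marker cells, with H2-Aa at 0.54 (SE 0.69) and H2-Eb1 at -0.21 (SE 0.60). With the marker-carrying hormone-containing cells left out, 29 members were called in place of 23. The added ones were H2-Aa (2.92, SE 0.53), H2-Ab1 (2.69, SE 0.35), H2-Eb1 (2.09, SE 0.33), Cd74 (4.12, SE 0.54), H2-DMb2 and Ctss. In library 1, however, endothelial-marker cells had 0 UMIs of H2-DMb2 and Ctss and 3 each of H2-Aa and Cd74 (6.66 CPM). The single-hormone groups of library 1 then had 3.91 to 10.4 CPM of H2-Aa and 6.84 to 7.98 of Cd74. H2-Ab1 was higher in library 1 too, at 33.3 against 8.79 to 17.5. The class II chaperone H2-DMb1 was called at 2.43, but it had 0 UMIs in the endothelial-marker cells of library 1, where the log2 fold change was -4.22. In library 2, 1 endothelial-marker cell with 120643 UMIs held 2688 class I and 212 class II UMIs. Without it the class I sum of that library was 6501 in place of 8443 CPM, and the class II sum 209 in place of 399.7.

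**Figure D4:**
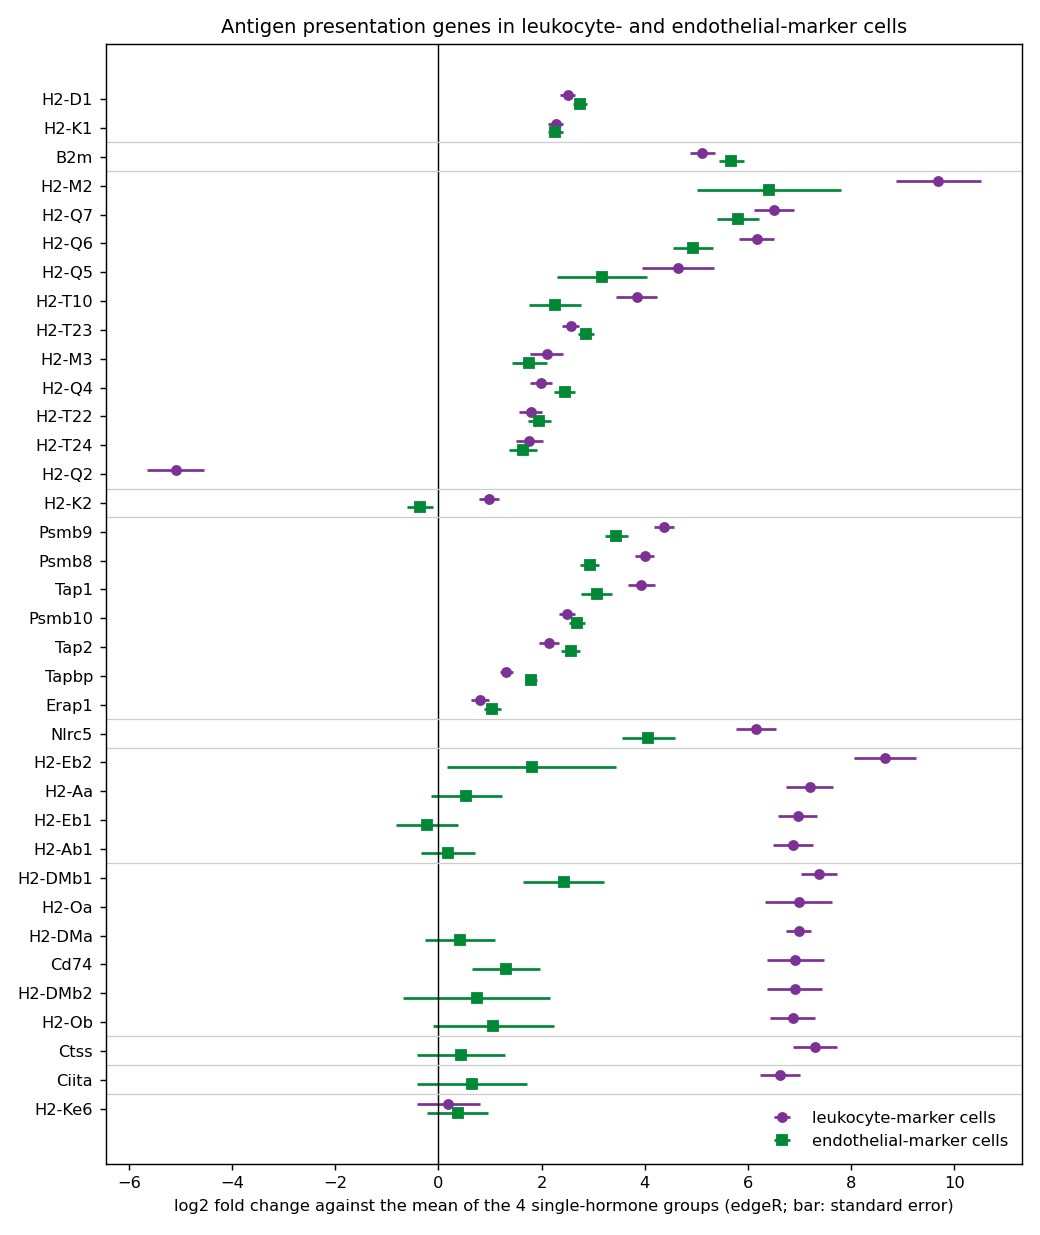
Log2 fold change of each member tested against the mean of the 4 single-hormone groups in leukocyte-marker cells (purple circles) and endothelial-marker cells (green squares), from edgeR, with bars of 1 standard error and lines between roles. Both cell groups lie to the right of 0 for H2-K1, H2-D1, B2m and the 7 peptide supply genes, and leukocyte-marker cells alone lie far to the right for the class II genes. H2-Oa and H2-Q2 are not drawn for endothelial-marker cells, which had 0 UMIs of both.

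In hormone-containing cells class II UMIs came mostly from few cells. The class II sum was 256 and 382 CPM in insulin-only cells, 42.7 and 39.7 in glucagon-only cells, 407 and 26.8 in somatostatin-only cells and 235 and 725 in pancreatic polypeptide-only cells. The libraries thus differed widely in somatostatin-only and pancreatic polypeptide-only cells. In library 1, 5 of 644 hormone-containing cells had at least 20 class II UMIs (76 to 557) and held 74.1% of the 1707 class II UMIs. In library 2, 6 of 656 had at least 20 (36 to 963) and held 84.4% of 2653. The highest of the other cells had 10 and 8, and their median was 0. All 11 cells carried at least 3 of the 9 leukocyte markers in the tables. Of these cells, 6 had 7 or 8 of the 8 B cell markers and another 4 had 4 to 11 of the macrophage markers. All 11 had at least 4 of the 6 endocrine markers, and 0 were called as doublets. The minimum of 20 was chosen after the values were seen.

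The calls of class II genes between single-hormone groups moved with these cells. With all cells, insulin-only cells exceeded glucagon-only cells in H2-Aa (log2 fold change 3.75, SE 0.71, adjusted p = 0.00159 by edgeR), Cd74 (3.39), H2-Eb1 (3.03), H2-Ab1 (2.57), H2-DMb1 (3.35), H2-DMa (1.56) and Ctss (4.17). Pancreatic polypeptide-only cells exceeded glucagon-only cells in the same 7 genes, with log2 fold changes of glucagon-only over pancreatic polypeptide-only cells between -1.95 and -4.64. Without the marker-carrying cells the class II sum was between 17.4 and 52.6 CPM in each hormone group of each library, and H2-Aa (1.01), Cd74 (-0.15) and H2-Ab1 (-0.13) no longer differed by the test between insulin-only and glucagon-only cells. Cd74 of glucagon-only against somatostatin-only cells, called at -2.71, had 0.61 in library 2 alone.

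Shares of cells with a class II UMI were set beside those of cells with other roles, since empty barcodes were not analysed here. A class II UMI was present in 44.5% and 36.8% of insulin-only cells (95% exact binomial interval 37.2% to 52.0% and 30.0% to 44.1%), with median depths of 19642 and 17170 UMIs. The share was 75% and 58.3% of T cell-marker cells, at 9307 and 10405 UMIs, and 42.9% and 47.1% of endothelial-marker cells, at 14868 and 17237. After each cell was thinned to 4000 UMIs, no cell being shallower, the shares were 14.3% and 10% in insulin-only cells, 37.5% and 33.3% in T cell-marker cells and 14.3% and 20.6% in endothelial-marker cells. Over all hormone-containing groups the shares were 21.7% to 55.9% before and 4.35% to 22.9% after thinning. They lay below those of T cell-marker cells and overlapped those of endothelial-marker cells. T cells are not known for class II, but 1 T cell-marker cell of library 2 held 208 class II UMIs, where the median was 1. Whether the shares reflect expression was not tested, and they are not read as such. The part of free RNA in them was not tested. The intervals cover counting error only.

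Of the 10 class II chains and chaperones, H2-DMa was the one still called between single-hormone groups outside the marker-carrying cells. It was then at 12.7 and 10.8 CPM in pancreatic polypeptide-only cells, 4.39 and 3.92 in insulin-only cells, 2.73 and 3.63 in glucagon-only cells and at 0 UMIs in somatostatin-only cells. The levels of the first 3 groups rest on few UMIs, 13 and 15, 11 and 9, and 7 and 10. Glucagon-only over pancreatic polypeptide-only cells gave a log2 fold change of -1.85 (SE 0.38, adjusted p = 0.00728 by edgeR), and insulin-only over pancreatic polypeptide-only cells -1.41 (SE 0.37, adjusted p = 0.0157 by edgeR). With all cells, pancreatic polypeptide-only cells were at least 3.06-fold and insulin-only cells at least 2.27-fold higher than somatostatin-only cells. Outside the marker-carrying cells the call of insulin-only against somatostatin-only cells was lost (adjusted p = 0.0773 by edgeR), and the call of insulin-only against pancreatic polypeptide-only cells was made only there. H2-DMa made up 11.2% and 14.5% of the class II UMIs in hormone-containing cells outside the marker-carrying ones, but 1.36% and 1.22% in leukocyte-marker cells. H2-Ab1 made up 34.8% and 32.3% against 31.7% and 32.5%. The H2-DMa gene (chr17:34119541-34139101, plus strand) overlaps Brd2 on the opposite strand, and whether counting used the strand is not given in the sources used here.

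Other genes of the pathways were taken from fixed lists. Of 35 genes of interferon signalling and response, 34 were higher in hormone-free than in single-hormone cells, 0 were lower, and Tyk2 (0.50, SE 0.27) was not called, while 33.3% of all genes were higher and 25.9% lower. The median log2 fold change of the 35 genes was 3.07. Genes of this list that passed the filter only through hormone-free cells had to differ, so the count and median are a description. Ifitm3, an antiviral membrane protein, was at 11.1 and 1.26 CPM in insulin-only cells, 1039 and 1117 in endothelial-marker cells and 233 and 89.3 in leukocyte-marker cells. Between leukocyte-marker and endothelial-marker cells, 8 of the list were higher and 8 lower, near the 40.2% of all genes called (17.8% higher and 22.4% lower). Between insulin-only and glucagon-only cells 3 were higher (Jak1, Gbp3 and Ifi27) and 5 lower, a share near the 24.7% of all genes called. Among the 5 was Irf1, at 59.1 and 53.5 against 115 and 116 (log2 fold change -0.99, SE 0.25, adjusted p = 0.011 by edgeR).

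Of 9 genes of class I folding and the general proteasome, 4 were higher in insulin-only than in glucagon-only cells and 0 lower, where 12.9% of all genes were higher and 11.7% lower. They were the endoplasmic reticulum folding genes Canx, Calr, Pdia3 and Erp29, with Canx at 1469 and 1522 against 772 and 781 CPM (log2 fold change 1.00, SE 0.10, adjusted p = 5.73e-06 by edgeR). In hormone-free cells 3 of the list were higher, the same share as the 33.3% of all genes, among them the proteasome activator Psme1 (1.79, SE 0.10), and Canx (-0.45) and Pdia3 (-0.91) were lower. Of 13 genes of class II transcription and endosomal processing, 6 were higher in hormone-free cells, against 33.3% of all genes, and Rfx5, a subunit of the factor that binds class II promoters, was lower (-1.11, SE 0.35, adjusted p = 0.0146 by edgeR). All 6 costimulation and inhibition genes tested, of 7 listed, were higher in hormone-free cells, where 33.3% of all genes were, and a gene that passed the filter only through those cells had to differ. Cd274, which encodes the inhibitory ligand PD-L1, was at 10.3 and 8.84 in insulin-only cells, 35.2 and 30.2 in somatostatin-only cells and 91.1 and 98.7 in leukocyte-marker cells. Insulin-only over somatostatin-only cells gave -1.62 on the log2 scale for Cd274 (SE 0.32, adjusted p = 0.00381 by edgeR).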

How the data were processed

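Single cells of C57BL/6J islets were measured by RevGel-seq, which links each cell to a barcoded bead in a reversible gel. The authors deposited 1 table per library of UMI counts per gene and cell barcode, made with their Cytonaut software on build GRCm38 from exonic reads, for barcodes above a depth threshold set with UMI-tools. Empty barcodes were not analysed here, and the strand setting of the counting is not given in the sources used here.

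A cell belonged to a hormone group when Ins1 with Ins2, Gcg, Sst or Ppy reached 1% of its UMIs. Hormone-free cells with UMIs of at least 3 markers of a list took the list with the larger share of markers found. The remaining cells were split by which of the ductal, mesenchymal and endocrine lists held most UMIs, a rule set after the values were seen. UMIs were summed per library and group without the 5 hormone genes and tested with edgeR 4.0.16 (TMM scaling, filterByExpr, quasi-likelihood, Benjamini-Hochberg adjusted p under 0.05 over 15937 genes in 12 sums by hormone, and over 13751 genes in 12 sums with endothelial-marker and leukocyte-marker cells, their marker genes left out). Each group has 2 libraries, so an exact permutation of a pair of groups cannot go below p = 0.333. Scrublet called 16 cells (1.08%) as doublets, and they were kept. On simulated counts for insulin-only against glucagon-only cells (15154 genes), 54.35% of 2-fold and 93.68% of 4-fold changes were recovered. Members are named by role, with other H2- genes that reached 10 CPM in a group. The members and the gene lists were chosen with earlier results of these data known. H2-Ea-ps, H2-M6-ps and H2-Q3 (library 1) and H2-M10.1 (library 2) had a row in 1 table only and were left out. GENCODE vM21 matched all 43 members, of which 8 overlap another gene on their strand and 19 on the other. A count of 0 allows up to 3 UMIs.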

Additional observations from a re-analysis of the deposited data

How the results depend on the processing

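The direction of 145 called member differences was kept in 1728 of 1740 repeats under other settings, and 45 repeats lost the call. The 12 reversals were few in kind. With marker-carrying cells left out, Cd74 was -0.15 and H2-Ab1 -0.13 (insulin-only over glucagon-only), Cd74 was 0.41 (glucagon-only over somatostatin-only), and Cd74 was 0.47, Ctss 4.76, H2-Aa 0.15, H2-Ab1 0.72, H2-DMb1 1.96 and H2-Eb1 0.037 (glucagon-only over pancreatic polypeptide-only). Cd74 of glucagon-only over somatostatin-only cells was 1.48 at a hormone threshold of 5%, 0.61 without replicate 1 and -3.61 without replicate 2. H2-DMb1 in endothelial-marker cells was -4.22 without replicate 2 and 4.58 without replicate 1.

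Counts of members called changed by over 1.5 times as follows. Insulin-only against glucagon-only cells gave 10, but 5 at a threshold of 5% and 6 without marker-carrying cells. Insulin-only against somatostatin-only cells gave 3, but 6 without scaling, 14 with hormone genes kept and 6 without the filter. Insulin-only against pancreatic polypeptide-only cells gave 3, but 5 at 0.5%, 5 at 5%, 7 without the filter and 7 without marker-carrying cells. Glucagon-only against somatostatin-only cells gave 3, but 5 at 0.5%, 5 without scaling, 11 with hormone genes kept and 9 without the filter. Glucagon-only against pancreatic polypeptide-only cells gave 8, but 1 without marker-carrying cells, and somatostatin-only against pancreatic polypeptide-only cells gave 4, but 10 at 5%, 15 with hormone genes kept and 11 without the filter. With hormone genes kept and no TMM, the median of all genes moved by up to 0.68 (log2), and the split was 7 higher and 7 lower for insulin-only against glucagon-only cells, 1 and 13 for insulin-only against somatostatin-only cells and 14 and 1 for somatostatin-only against pancreatic polypeptide-only cells. The cause was not tested. With library as a replicate block, the count for glucagon-only against pancreatic polypeptide-only cells was 7 in place of 8, and no other call changed. The libraries share a preparation, not a pairing of cells.

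Class I means moved from 1024 to 619 (insulin-only), 1124 to 843 (glucagon-only), 1203 to 776 (pancreatic polypeptide-only) and 1220.5 to 941 (2 or more hormones) with totals of all UMIs, to 938, 1096 and 1162 (the first 3) without marker-carrying cells, to 960.3 (insulin-only) and 1172 (pancreatic polypeptide-only) as means over cells, to 1776 (somatostatin-only) at 0.5% and to 1314 (2 or more) at 5%. Class II means moved from 319 to 417 at 0.5%, 130.3 at 5%, 191 with all UMIs, 213 over cells and 44.6 without marker-carrying cells in insulin-only cells. They moved from 41.2 to 65.8, 30.9 and 46.0 in glucagon-only cells (5%, all UMIs, over cells), from 125 to 152, 244, 96.5, 105 and 40.9 in cells with 2 or more hormones (2%, 5%, all UMIs, over cells, without marker-carrying cells), from 480.4 to 40.8 in pancreatic polypeptide-only cells (without marker-carrying cells), and from 7721 to 7279, 11716 and 7923 in hormone-free cells (5%, over cells, doublets removed). Shares of cells with a class II UMI fell to 12.1%, 12.1%, 13.6%, 10.3%, 10.9% and 51.9% when thinned, and to 4.07%, 4.51%, 5.03%, 10.7%, 4.01% and 49.7% at 3 UMIs, for the groups from insulin-only to hormone-free, and to 50.7% in pancreatic polypeptide-only cells without marker-carrying cells. Leaving out the endothelial-marker cell with most class I UMIs, chosen after seeing the data, moved the class I mean from 7813 to 6842.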
